A study of Mus musculus with 4 samples.

Results

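In this study, open chromatin was mapped by ATAC-seq, which sequences the fragments that a transposase cuts from accessible DNA, in mouse bone marrow-derived macrophages (BMDMs), and the regions described here are those assigned to microRNA genes. Peaks of the 4 libraries that overlapped by at least 1 bp on the autosomes, X and Y were merged into 60710 regions, and each region took the gene of its highest peak. A total of 956 regions were assigned to 280 gene names that begin with Mir and a digit or with Mirlet. The control cells (n = 2 libraries) and the IL-4-treated cells (n = 2 libraries) were both wild-type BMDMs from C57BL/6 mice of 8 to 12 weeks of age, cultured for 6 days with L929 supernatant, a source of M-CSF. The treated cells received IL-4 at 20 ng/ml for 1 h, and the controls received no IL-4. The libraries of a group are described as biological replicates in the methods.

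MicroRNAs are short RNAs that are cut from hairpins in longer primary transcripts and guide Argonaute proteins to messenger RNAs. The seed, a short stretch near the 5′ end of the mature strand, pairs with the target and largely decides which messages are repressed. Many hairpins lie inside introns of protein-coding genes and are transcribed with them, so open DNA near a hairpin can serve the host gene, the microRNA or a neighbour. In macrophages, miR-155 is known as an inflammatory microRNA, miR-21 as a microRNA of inflammation and its resolution, and miR-511 is made from an intron of Mrc1, the mannose receptor gene that marks alternatively activated macrophages.

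The mature strands of the microRNAs on which the results below turn are shown with the seed (bases 2 to 8) in capitals, as RefSeq gives them for the mm10 assembly. The first 7 belong to the genes with the IL-4-only, control-only or highest-ranked regions, and the others are grouped by a shared seed.
miR-101b-3p: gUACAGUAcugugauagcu
miR-582-5p: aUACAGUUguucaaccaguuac
miR-155-5p: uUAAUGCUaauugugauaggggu
miR-511-3p: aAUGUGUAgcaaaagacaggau
miR-21a-5p: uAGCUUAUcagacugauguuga
miR-491-5p: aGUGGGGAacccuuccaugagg
miR-29b-3p: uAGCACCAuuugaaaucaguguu
let-7i-5p: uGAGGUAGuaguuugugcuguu
let-7c-5p: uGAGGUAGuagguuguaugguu
miR-181a-5p: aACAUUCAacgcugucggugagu
miR-181b-5p: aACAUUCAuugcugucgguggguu
miR-221-3p: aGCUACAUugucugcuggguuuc
miR-222-3p: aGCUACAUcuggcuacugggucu
miR-34a-5p: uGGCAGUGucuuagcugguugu
miR-449c-5p: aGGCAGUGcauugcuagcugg

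The hairpin record could be placed for 235 of the 280 names, which gave 333 mature sequences, and 27 seeds were shared by the microRNAs of more than 1 of these genes. The let-7 seed GAGGUAG was shared by 7 genes with an open region, the miR-181 seed ACAUUCA by 5 and the miR-34 and miR-449 seed GGCAGUG by 4. For Mirlet7a-2 only the 3p strand was found, so it is not among the 7.

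Most of these regions were distal. Of the 956 regions, 450 were annotated as intergenic and 427 as intronic, and 42 (4.39%) were annotated as promoters, compared with 18.8% of all regions. The median distance to the start of the assigned microRNA was 28187 bp, against 14419 bp to the assigned start over all regions, and 60 regions lay within 1 kb. This start is the first base of the annotated hairpin and not the start of the primary transcript, so "promoter" here means DNA just upstream of a hairpin. The names Mir22hg and Mir143hg are exceptions, since they are host genes measured from the start of their own longer transcript. Of all 956 regions, 521 were assigned to a hairpin inside a curated transcript on the same strand, and 48 lay within 1 kb of the start of another curated gene. Regions of these host genes are counted there with their own transcript. The median length was 192.5 bp, against 209 bp for all regions, and the median GC content was 49.1% and 51.0%.

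**Figure D1:**
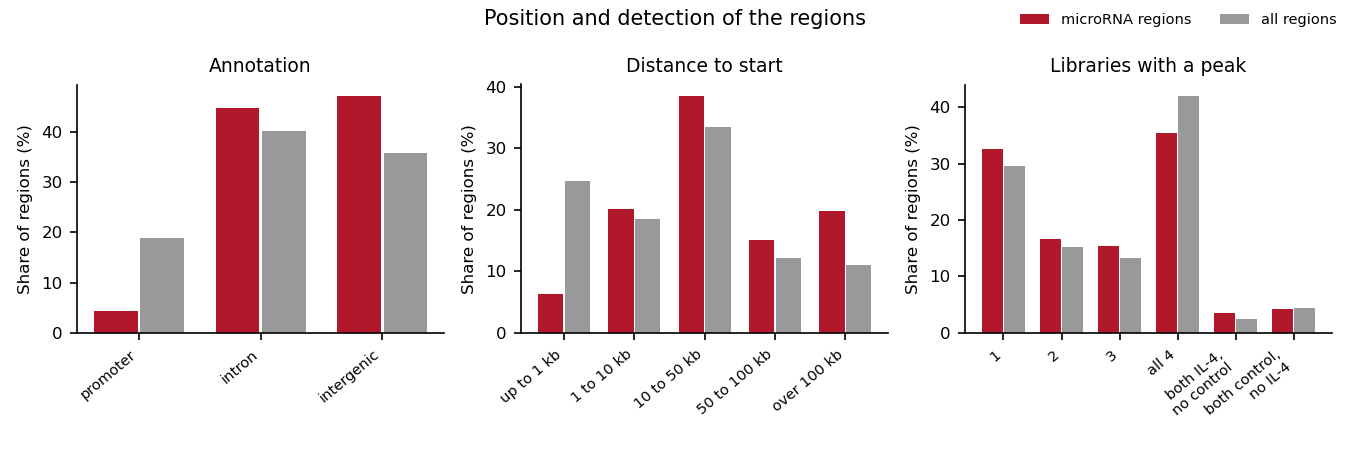
Share of regions (%, vertical axes) by annotation, by distance to the assigned start and by the libraries that held a peak, for the 956 microRNA regions (red) and all 60710 regions (grey). Promoters make up 4.39% of the microRNA regions and 18.8% of all regions, and 35.4% and 41.9% have a peak in all 4 libraries.

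The gene name was a matter of position. For 821 regions, the RefSeq hairpin lay at the deposited distance (within 100 bp), and for 135 regions of 45 names it did not. These included all 26 regions of Mir3110, all 9 of Mir684-1 and all 6 of Mir669a-1, whose hairpin records were elsewhere in the RefSeq annotation, so these are called by the deposited name only. The regions were unevenly spread over the 280 names, with a median of 2 regions per name, 113 names with 1 region and 57 with 5 or more. The names with most regions were Mir1907 (41 regions, in and around Trps1, which encodes a GATA-type repressor), Mir3110 (26), Mir5130 (25), Mir582 (22, in Pde4d, a cAMP phosphodiesterase gene) and Mir1904 and Mir5127 (17 each).

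Control replicates 1 and 2 held 669 and 605 peaks assigned to microRNAs, and IL-4 replicates 1 and 2 held 604 and 596. The means were 637 ± 45.3 (SD, n = 2) and 600 ± 5.66 (SD, n = 2), a difference of −37 that the exact two-sided permutation test could not separate (p = 0.333, the smallest p that 2 libraries against 2 allow). As a share of the peaks of each library these were 1.48% and 1.44% in the controls and 1.44% and 1.51% after IL-4 (exact permutation p = 1). Sequencing depth is unknown, since the files hold no read counts. Height, which is −log10 of the q-value of a peak, had a median over all peaks of 8.04 and 7.46 in the controls and of 7.69 and 6.41 after IL-4, so the second IL-4 library had the lowest peaks. As a check of the labelled cell type, 5 of 8 macrophage marker genes had a promoter peak in all 4 libraries, and no B cell, T cell, fibroblast or erythroid marker had one in all 4 libraries, whereas 1 of 4 neutrophil markers did. Of 3 dendritic cell markers none had one in all 4 libraries, but Flt3 and Zbtb46 had a promoter peak in both controls and IL-4 1.

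A peak was present in all 4 libraries for 338 of the 956 regions (35.4%, against 41.9% of all regions), in 3 for 15.4%, in 2 for 16.6% and in 1 for 32.6%. The question was then which microRNA regions had a peak in every library of 1 group and none in the other group. A total of 33 regions (3.45%) had a peak in both IL-4 libraries and in no control library, where the share over all regions was 2.53%. The opposite pattern was found in 41 regions (4.29%), where the share over all regions was 4.33%. A missing peak means only that the caller found none in that library. Without control replicate 1, control replicate 2, IL-4 replicate 1 or IL-4 replicate 2, the IL-4-only share became 6.59%, 5.54%, 12.2% and 10.1%, and the control-only share 10.4%, 15.4%, 10.8% and 7.95%. Fewer libraries then had to match, so each share could only rise. The shares over all regions with a library left out were not computed.

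The strongest IL-4-only region lay in an intron of Rcl1, the host gene of Mir101b, 7394 bp past the hairpin start (chr19:29142460-29142806). Its heights were 14.45 and 10.17 in the IL-4 libraries, with no peak in either control. It stood above 79.1% and 72.5% of the peaks of those libraries. The second was in Pde4d, 36638 bp upstream of Mir582 (chr13:109288019-109288254), with heights of 12.19 and 8.87. Both were well above the bulk of these regions, since the weaker of the 2 IL-4 heights had a median of 3.64 and an upper quartile of 4.17 over the 33 regions. Over all IL-4-only regions the median was 3.73.

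Next in rank was a region in Nrp1, which encodes the co-receptor neuropilin 1, at 76707 bp past Mir1903 (10.40 and 6.43), and a further region of Nrp1 at 91230 bp had heights of 9.03 and 4.17. A region 59027 bp past Mir744 had heights of 6.62 and 5.05. Trps1 and its surroundings, assigned to Mir1907, held 4 IL-4-only regions, of which 3 ranked among the first 10, with heights of 5.33 and 4.82 at 528306 bp, 4.76 and 6.35 at 19368 bp, and 4.44 and 5.85 at 33944 bp. A region of Vmp1, upstream of Mir21 by 45454 bp, had 5.34 and 4.93, and a region of Lingo2, assigned to Mir876, had 4.11 and 5.05. Of these 10 regions, 8 were intronic and the other two intergenic. Over the 33 regions, 28 (84.85%) lay more than 10 kb from the hairpin start, 16 were intronic and 14 intergenic, and 3 (9.09%) were annotated as promoters. Over all IL-4-only regions, 69.0% lay more than 10 kb from the assigned start, 45.6% were intronic, 42.2% intergenic and 7.76% promoters. Those 3 were just upstream of Mir671 (3.53 and 8.37), Mir762 (4.27 and 2.83) and Mir449c (3.61 and 3.28), the last a microRNA with the miR-34 seed. The Mir762 and Mir449c regions also lay within 1 kb of the starts of Bcl7c and Cdc20b.

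Among the control-only regions the strongest was in Rab3c, assigned to Mir1904 at 159093 bp, with heights of 6.96 and 9.76 and no peak after IL-4. Next were a region in Angpt4 assigned to Mir1953 (6.96 and 6.18) and a region 15505 bp upstream of Mir29b-1 (6.95 and 5.79). Mir29b-1, whose product belongs to the collagen-targeting miR-29 family, had a second control-only region about 1 kb away, 16766 bp upstream (6.11 and 4.98), and one more at −59970 bp (5.88 and 4) among its 15 regions. The other regions of the first 10 were assigned to Mir568 (6.54 and 5.67), Mir3108 (5.65 and 6.18), Mir582 (5.39 and 5.78), Mir1983 (6.50 and 5.17), Mir3960 (4.96 and 8.90) and Mir876 (7.38 and 4.95). None of the 41 regions was a promoter, where 4.39% of all microRNA regions and 8.82% of all control-only regions were. The weaker control height had a median of 4.06, against 4 over all control-only regions. Mir582, Mir876, Mir21, Mir511, Mir744, Mir3108 and Mir5130 held regions of both kinds. So did Mir1907, with 2 control-only regions beside its 4 IL-4-only ones.

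Heights were compared next in the 338 microRNA regions that all 4 libraries shared, with limma fitted over the 25442 regions of the genome that all 4 shared. No microRNA region passed an adjusted p of 0.05 in either direction, where 6 of all 25442 regions (0.0236%) did. At an unadjusted p under 0.05, 21 of the 338 (6.21%) were higher after IL-4, against 4.12% of all regions, and 12 (3.55%) were lower, against 4.15%. The fit without a variance trend gave 0 adjusted calls as well, both over the microRNA regions and over all regions. The median log2 change was −0.0082 over the microRNA regions and −0.00065 over all regions, the quartiles were −0.34 and 0.34, and the median standard error of a change was 0.46. As deposited, without normalisation, both IL-4 heights lay above both control heights in 41 regions (12.1%, against 8.83% of all regions) and below them in 101 (29.9%, against 29.3%).

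**Figure D2:**
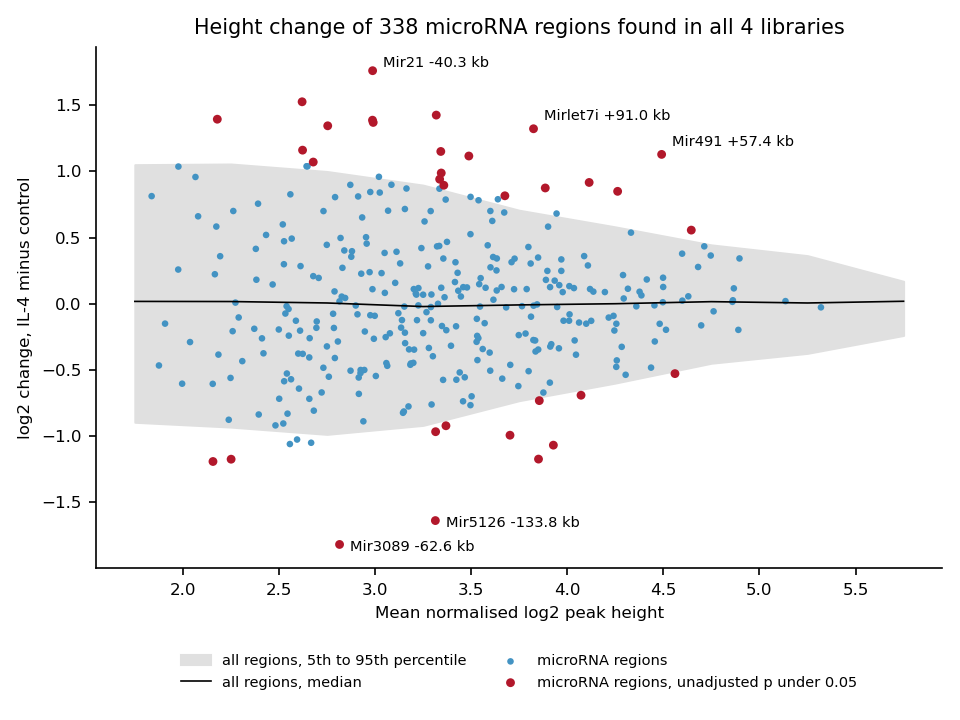
log2 change of the normalised peak height (IL-4 minus control, vertical axis) against the mean normalised log2 height of the 4 libraries, for the 338 microRNA regions. Red points (other points are blue) have an unadjusted limma p under 0.05 (21 above 0 and 12 below), the grey band and black line give the 5th to 95th percentile and the median of all 25442 regions in bins of height, and no red point passed the adjusted threshold.

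The region with the lowest adjusted p was in Focad, the host gene of Mir491, 57440 bp past the hairpin start (chr4:88179287-88179695). Its heights were 15.59 and 17.26 in the controls and 35.26 and 29.09 after IL-4, so the groups did not overlap. In the IL-4 libraries it was higher than 98.8% and 98.5% of all peaks, and in the controls higher than 79.6% and 86.2%. The log2 change was 1.13 ± 0.27 (SE, n = 2 per group), with a limma adjusted p of 0.151. Without control replicate 2, the limma adjusted p was 0.0343, and over the alternatives tried for this region it ran from 0.0343 to 0.799. A second Focad region at 92069 bp, which was among the 10 highest of all microRNA regions, had heights of 33.64 and 32.46 in the controls and 31.56 and 21.94 after IL-4.

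The largest positive log2 change was at Mir21, in an intron of Vmp1 40274 bp upstream of the hairpin. Its heights were 6.83 and 3.30 in the controls and 18.80 and 9.62 after IL-4, a log2 change of 1.76 ± 0.50 (SE, limma adjusted p = 0.244). Both IL-4 libraries lay above both controls. The change was 1.64 between the libraries numbered 1 and 1.88 between those numbered 2.

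A region 90983 bp past the Mirlet7i hairpin, in an intron of the phosphatase gene Ppm1h, had heights of 11.28 and 8.44 in the controls and 21.94 and 20.46 after IL-4. Its log2 change was 1.32 ± 0.36 (SE, limma adjusted p = 0.221), and the groups did not overlap. Mir181a-1 and Mir181b-1 are neighbouring hairpins that share a seed and are known from lymphocyte development. The region 114003 bp upstream of Mir181a-1 had heights of 11.18 and 3.78 against 16.68 and 13.88 after IL-4, and the region 78105 bp past Mir181b-1 had 3.17 and 2.66 against 9.33 and 4.93. Their log2 changes were 1.42 and 1.39. A region 50715 bp past Mir221 on chromosome X had heights of 5.65 and 4.95 against 14.89 and 9.34 (log2 change 1.39), also without overlap.

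The other 3 of the 8 largest positive changes were a region of Ptpre, a tyrosine phosphatase gene, assigned to Mir1962 (5.31 and 2.87 against 7.18 and 13.00, log2 change 1.52) and 2 regions assigned to Mir3110. At −84228 bp from the deposited start the Mir3110 heights were 9.48 and 3.12 against 15.09 and 9.17, where control 1 lay above IL-4 2, and at −111417 bp they were 5.16 and 3.96 against 16.30 and 5.97. A region 7447 bp upstream of Mir193 had 7.76 and 7.17 in the controls and 13.04 and 15.20 after IL-4 (log2 change 1.15 ± 0.44, limma adjusted p = 0.436).

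In the other direction, the largest change was in an intergenic region 62625 bp upstream of Mir3089 (chr2:30658364-30658771). Its heights were 13.48 and 15.24 in the controls and 5.48 and 2.29 after IL-4, a log2 change of −1.82 ± 0.52 (SE, limma adjusted p = 0.244). A region of Dner assigned to Mir5126 had 27.79 and 12.50 in the controls and 5.34 and 5.05 after IL-4 (log2 change −1.64 ± 0.46, adjusted p = 0.232 by limma). In both regions the groups did not overlap.

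Regions assigned to Mir466f-3 and Mir5130 started from higher peaks. The first had heights of 26.68 and 19.66 in the controls and 11.5 and 6.66 after IL-4. The second, intergenic and 115932 bp past the start of a hairpin in Kctd12, had 25.92 and 21 against 10.84 and 8.60. Their log2 changes were −1.17 and −1.07. The remaining 4 of this set had lower peaks: Mir684-1 (8.79 and 6.15 against 2.95 and 2.49), Mir1930 (7.76 and 7.89 against 2.95 and 2.79), Mir875 (10.87 and 7.80 against 2.75 and 5.05) and Mir222 (11.20 and 8.78 against 6.62 and 2.49), with log2 changes of −1.19, −1.17, −1.06 and −1.05, and those of Mir875 and Mir222 did not meet the unadjusted threshold. The groups did not overlap in any of these 8 regions, which were picked for their negative changes. Over all regions shared by the 4 libraries, both deposited IL-4 heights lay below both control heights in 29.3%. Mir221 and Mir222, which are made from neighbouring hairpins and share a seed, each had regions with log2 changes on both sides of 0, from −0.83 to 1.39 and from −1.05 to 0.89.

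**Figure D3:**
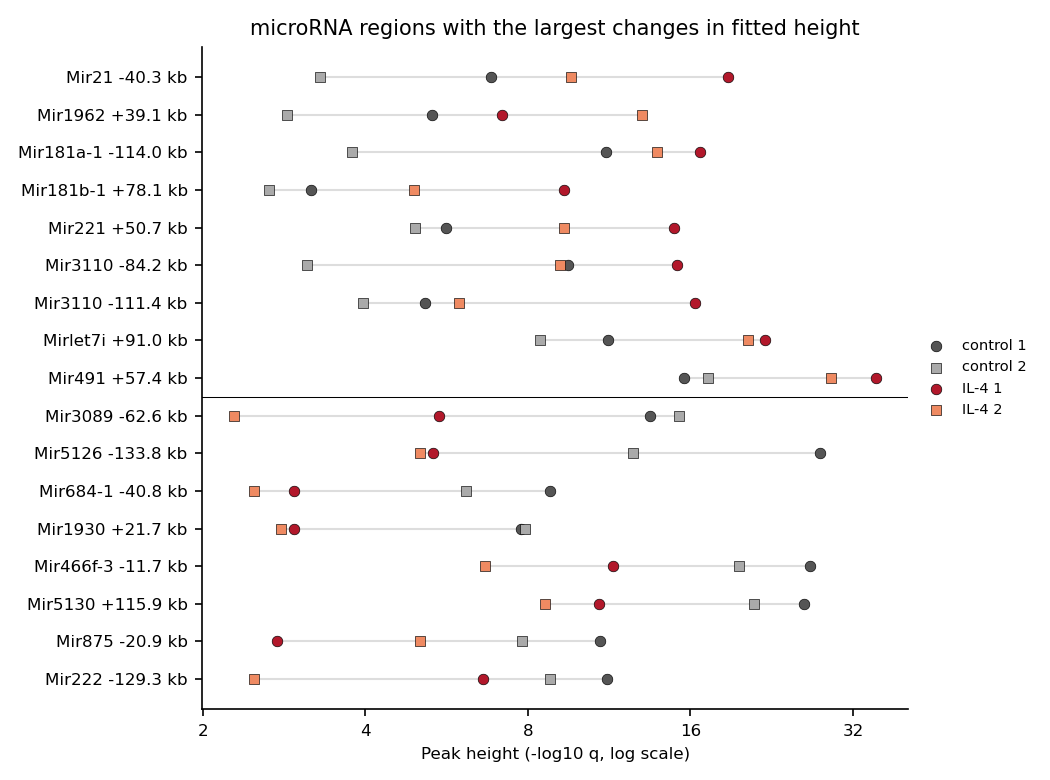
Deposited peak height (read as −log10 q, log scale, horizontal axis) in the 4 libraries for the 8 regions with the largest positive log2 change and the Mir491 region (above the line) and the 8 with the most negative change (below the line), named by microRNA and distance from its start. In the lower 8 regions both IL-4 libraries (red and orange) lie below both controls (dark and light grey), and in the upper set the groups overlap only at the nearer of the Mir3110 regions. The regions shown were picked for their changes. Over all regions shared by the 4 libraries, both IL-4 heights lie below both controls in 29.3% and above them in 8.83%.

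Directions were also compared within genes. Of the 38 microRNA genes with at least 3 regions in all 4 libraries, 32 (84.2%, against 84.1% of all genes with as many) had regions with log2 changes above and below 0, 1 had all its changes above 0 and 5 had all below 0. These are signs of estimates and not calls. All 5 such regions of Mir181a-1 had positive values, from 0.18 to 1.42. Over the 338 regions, 185 (54.7%) differed the same way between the libraries numbered 1 and those numbered 2, against 53.7% of all regions, and 25 (7.40%) had an absolute log2 change of 1 or more, against 5.54%.

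The 10 regions with the largest mean height had log2 changes between −0.20 and 0.43. The first was 189808 bp upstream of Mir302b (44.23 and 37.87 in the controls, 47.08 and 31.46 after IL-4), and Mir30a followed with a region at −16047 bp (32.80 and 39.99, then 38.21 and 30.69). The other 8 were assigned to Mir205, Mir491, Mir760, Mir669a-1, Mir5129, Mirlet7c-1, Mir582 and Mir181a-1, each with all 4 heights between 21.17 and 37.51. Mir302b belongs to a cluster known for pluripotent cells and Mir205 is known for epithelia, and both regions lay more than 70 kb from the hairpin.

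**Figure D4:**
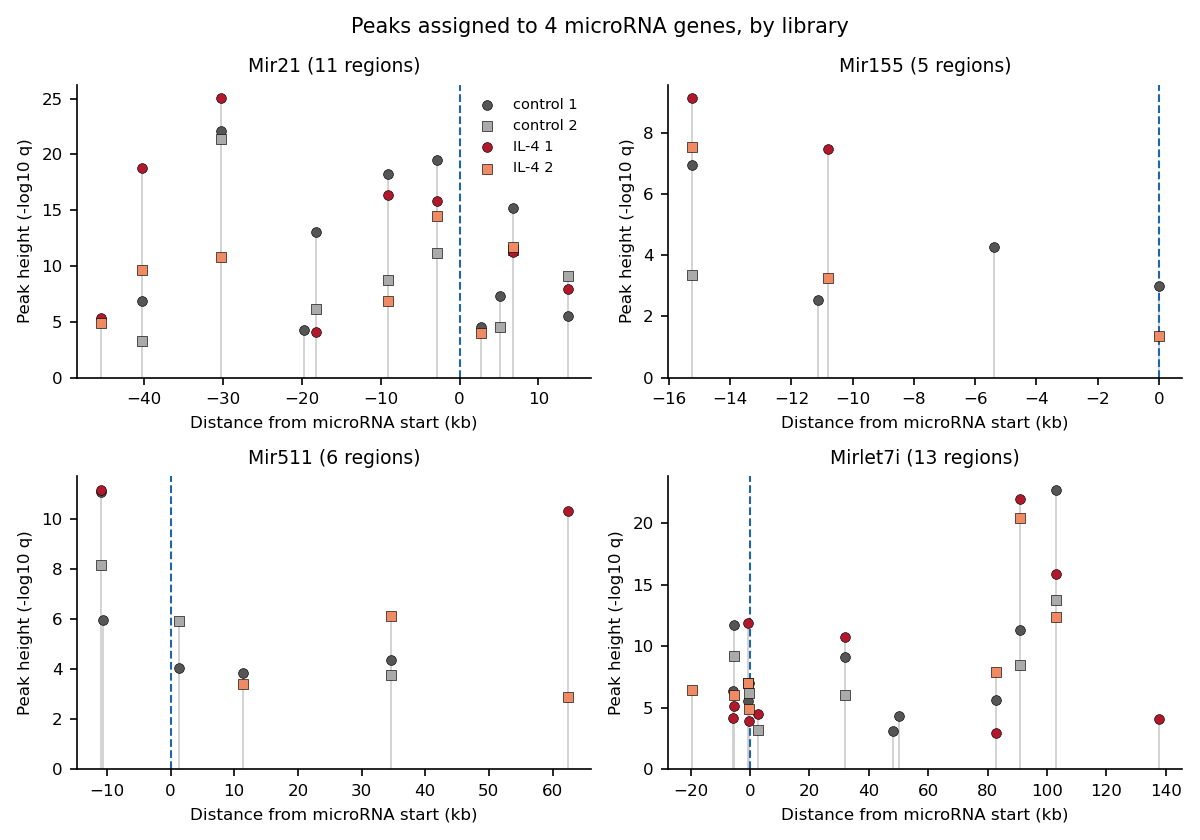
Deposited peak height (read as −log10 q, vertical axes) of each region assigned to Mir21, Mir155, Mir511 and Mirlet7i against its distance from the hairpin start (kb, horizontal axes, dashed line at 0), with 1 symbol per library that had a peak. At Mir21 both IL-4 libraries stand above both controls in the region at −40274 bp, and Mir155 at −10806 bp and Mir511 at 62377 bp have peaks only after IL-4.

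The inflammation list (miR-155, miR-146, miR-21, miR-9, miR-132, miR-212, miR-147, miR-187 and miR-29) had regions for 8 of its 9 members, and none for miR-132 by name. Of its 47 regions, 14 had a peak in all 4 libraries, with 0 adjusted calls, 1 higher and 0 lower at the unadjusted threshold (4.12% and 4.15% of all regions), and a median log2 change of 0.14. Peaks only after IL-4 were found in 2 of them and peaks only in the controls in 6 (2.53% and 4.33% of all regions). Mir155 had a weak peak at its hairpin, of 2.98 in control 1 and 1.35 in IL-4 2 and none in the other libraries. An intergenic region in a CpG island 10806 bp upstream of it (chr16:84703244-84703424) had called peaks only after IL-4, at 7.47 and 3.27. Control 1 had a separate peak of 2.52 beside it at −11119 bp, and when peaks within 500 bp were merged the pair became 1 region that was no longer IL-4-only. At 15261 bp upstream all 4 libraries had a peak, of 6.93 and 3.35 in the controls and 9.12 and 7.54 after IL-4 (log2 change 1.04 ± 0.53, limma adjusted p = 0.620).

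Mir21 had 11 regions of several kinds. Besides the region at −40274 bp and the IL-4-only region at −45454 bp, it had a control-only region 5067 bp past the hairpin start (7.33 and 4.50). The 2 regions closest upstream had heights of 19.47 and 11.14 in the controls and 15.82 and 14.45 after IL-4 at −2886 bp, and of 18.29 and 8.78 and of 16.40 and 6.86 at −9077 bp. The groups overlapped in both. Mir146, a target of NF-κB that restrains inflammatory signalling, had its main region 10924 bp upstream, at 24.64 and 20.40 against 25.56 and 20.57. Just upstream of Mir212, which is next to Mir132, peaks of 3.21 and 3.49 were found in control 2 and IL-4 2, and a region centred 90 bp past the hairpin start had a peak of 5.72 in IL-4 2 alone. At Mir9-2 there was a peak of 5.27 in control 1 alone.

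The alternative activation list (miR-378, miR-511, miR-124, miR-27, miR-125, miR-223, miR-193, miR-342 and let-7) had regions for 7 of its 9 members, with none by name for miR-27 and miR-342. Of its 50 regions, 16 were in all 4 libraries, with 0 adjusted calls, 2 higher and 0 lower at the unadjusted threshold (4.12% and 4.15% of all regions) and a median log2 change of −0.090. It held 1 IL-4-only region and 2 control-only regions (2.53% and 4.33% of all regions). Mir511 had 1 of each. The region 1340 bp past its hairpin had control peaks of 4.06 and 5.91 and none after IL-4, and the region 62377 bp past it, in a later intron of Mrc1, had IL-4 peaks of 10.31 and 2.88 and none in the controls. At the Mirlet7i hairpin, a region at −230 bp had 7.02 and 6.16 in the controls and 3.92 and 4.86 after IL-4, and a region at −729 bp had 5.52 and 7 against 11.87 and 7.04. These 2 neighbours had log2 changes of −0.37 and 0.81, and neither met the unadjusted threshold. Mirlet7c-1 at 3090 bp (32.23 and 25.97 against 29.13 and 21.94) and Mir125b-2 at −1797 bp (21.27 and 19.65 against 22.77 and 16.65) overlapped between the groups. The 2 regions named Mir378 lay in Tcf12 and had no hairpin record at the deposited distance. Mir223, a myeloid microRNA, had a single region 13893 bp past its hairpin in Vsig4, with heights of 5.65 and 7.12 in the controls and 3.73 in IL-4 2.

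The blood cell list (miR-142, miR-223, miR-424, miR-181, miR-150, miR-126, miR-144 and miR-451) had regions for 3 of its 8 members. Of 34 regions, 13 were in all 4 libraries, with 0 adjusted calls, 3 higher and 0 lower at the unadjusted threshold (4.12% and 4.15% of all regions) and a median log2 change of 0.28. All 3 were regions of Mir181a-1 and Mir181b-1. Mir142, which is expressed throughout the blood lineages, had a region at −7292 bp with heights of 22.13 and 17.62 in the controls and 11 and 11.61 after IL-4 (log2 change −0.60 ± 0.35, limma adjusted p = 0.678). Closer to its hairpin, at −1371 bp, the heights were 14.49 and 11.63 against 13.85 and 10.13.

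Of the proliferation clusters (miR-17, miR-18, miR-19, miR-20, miR-92, miR-25, miR-93, miR-106, miR-15, miR-16, miR-221 and miR-222), 6 of 12 members had regions. Of 28 regions, 15 were in all 4 libraries, with 0 adjusted calls, 4 higher and 0 lower at the unadjusted threshold (4.12% and 4.15% of all regions) and a median log2 change of −0.039. Upstream of Mir17, the first hairpin of the miR-17-92 cluster, the region at −2803 bp had heights of 17.89 and 22.04 in the controls and 11.08 and 10.38 after IL-4, and the region at −1331 bp had 10.73 and 12.98 against 15.86 and 10.30. The groups did not overlap in the first and overlapped in the second, and neither met the unadjusted threshold. The Mir17 region that met it lay at −25760 bp, with 11.09 and 12.72 in the controls and 18.62 and 19.02 after IL-4 (log2 change 0.87 ± 0.35, limma adjusted p = 0.478). The p53 and metabolism list (miR-34, miR-33, miR-22 and miR-210) had regions for all 4 members. Of 13 regions, 9 were in all 4 libraries, with 0 calls at either threshold and a median log2 change of −0.19. Mir210, the hypoxia-induced microRNA, had promoter peaks whose heights overlapped between the groups (26.41 and 20.55 against 20.87 and 20.25). All 3 regions of Mir34a in all 4 libraries had lower means after IL-4, such as 11.75 and 11.54 against 6.95 and 7.48 at 7838 bp (log2 change −0.45). The list of other tissues (miR-1, miR-122, miR-124, miR-128, miR-133, miR-137, miR-206, the miR-290 to miR-295 cluster and miR-302) had regions for 6 of 14 members. Of 31 regions, 8 were in all 4 libraries, with 0 calls at either threshold and a median log2 change of 0.075, and within 10 kb of a hairpin there were 3 regions.

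Few hairpins had an open promoter by this definition. Only 13 of the 42 promoter regions were in all 4 libraries, and some of these were also the promoter of a coding gene, such as the Mir1956 region beside Eif4e (205 bp from its start), the Mir3960 region beside Cdk9 (−457 bp) and the Mir5133 region beside Glce (−195 bp). Away from other starts, the promoter regions of Mir210, Mir713 (28.88 and 23.02 against 22.90 and 17.60), the Mir22 host gene (21.04 and 15.46 against 16.98 and 12.06) and the Mir23a cluster (12.60 and 15.08 against 9.06 and 10.70) had the highest peaks. For the Mir22 host gene the start is that of its own transcript and not of a hairpin. None of these regions met the unadjusted threshold. The median GC content of the 42 promoter regions was 63.4%, against 48.9% for the other 914.

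The sequences of the regions were searched on both strands for 4 motifs. TTCNNNNGAA is the spacing bound by STAT6, the factor that IL-4 activates, and TTCNNNGAA is that of other STAT proteins. TGACTCA was used for AP-1 and GAGGAAGT for PU.1, the macrophage lineage factor. The STAT6 spacing was found in 65 of the 956 regions (6.80%), against 7.22% of all regions. It was found in 7 of the 33 IL-4-only regions (21.2%) and in 1 of the 41 control-only regions (2.44%), and the shares over all IL-4-only and all control-only regions were 30.9% and 2.24%. The control-only microRNA regions had a median length of 172 bp. Of the 21 regions that were higher at the unadjusted threshold 5 held it (23.8%, against 26.2% over all such regions) and of the 12 lower ones 1 (8.33%, against 4.82%).

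**Figure D5:**
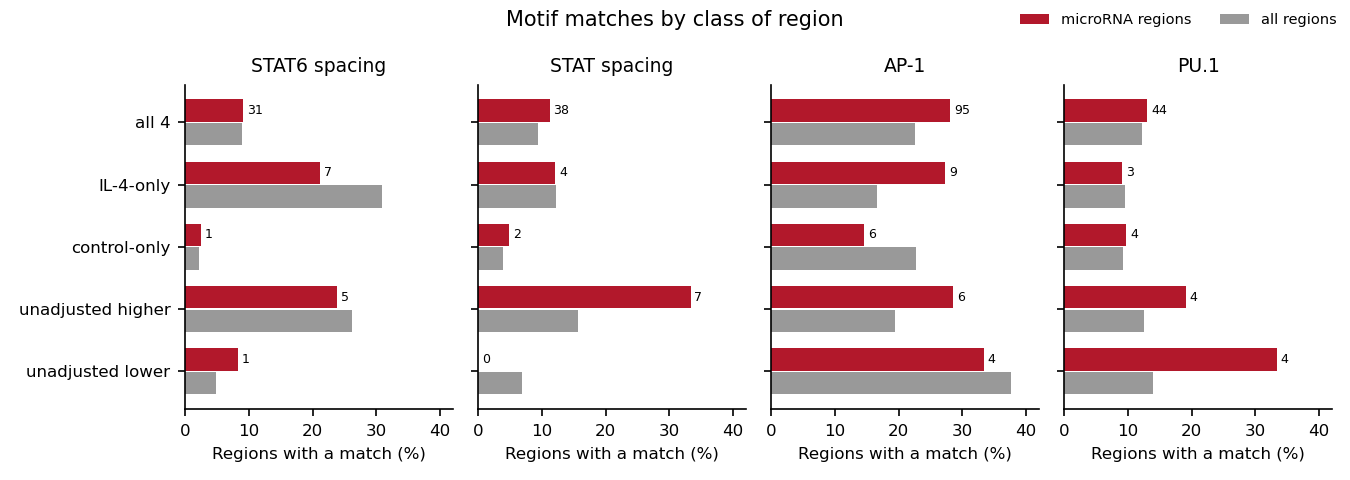
Share of regions with at least 1 match (%, horizontal axes) to each of 4 motifs, for microRNA regions (red, with the number of matching regions) and all regions (grey), by class. The STAT6 spacing is in 7 of 33 IL-4-only microRNA regions and in 1 of 41 control-only ones.

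The 7 IL-4-only regions with the STAT6 spacing were assigned to Mir101b, Mir582, Mir511, Mir1956, Mir5130 and Mir1907, the last with 2 regions, and the 1 control-only region was that of Mir511 near its hairpin. The Mir491 region described above held it too, and the Mirlet7i region did not. Windows of 200 bases around the first match to the STAT6 spacing are printed on the plus strand of mm10. They show 4 of the regions with higher or IL-4-only peaks side by side with the control-only region. Only matches to the STAT6 spacing are in capitals. Matches to the other motifs are not marked, such as those to the TTCNNNGAA spacing in the Mir101b and Mir582 windows.
Mir101b region, chr19:29142492-29142691: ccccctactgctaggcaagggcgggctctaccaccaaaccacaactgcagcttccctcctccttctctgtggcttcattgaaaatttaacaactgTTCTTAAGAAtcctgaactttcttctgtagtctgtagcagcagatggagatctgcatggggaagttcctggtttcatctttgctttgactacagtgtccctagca
Mir582 region, chr13:109288035-109288234: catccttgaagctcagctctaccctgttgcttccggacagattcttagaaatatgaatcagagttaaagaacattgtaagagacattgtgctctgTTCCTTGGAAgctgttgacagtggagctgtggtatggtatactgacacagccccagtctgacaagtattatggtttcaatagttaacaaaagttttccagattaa
Mir511 region found only after IL-4, chr2:14323278-14323477: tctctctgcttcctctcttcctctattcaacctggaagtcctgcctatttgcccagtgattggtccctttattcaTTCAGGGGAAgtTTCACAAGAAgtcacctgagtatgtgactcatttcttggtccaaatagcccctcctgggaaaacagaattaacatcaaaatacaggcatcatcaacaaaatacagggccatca
Mir491 region, chr4:88179427-88179626: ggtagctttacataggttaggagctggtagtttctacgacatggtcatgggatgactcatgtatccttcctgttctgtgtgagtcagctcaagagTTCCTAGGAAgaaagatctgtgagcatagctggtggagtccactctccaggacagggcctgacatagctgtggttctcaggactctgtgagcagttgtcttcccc
Mir511 region found only in controls, chr2:14262207-14262406: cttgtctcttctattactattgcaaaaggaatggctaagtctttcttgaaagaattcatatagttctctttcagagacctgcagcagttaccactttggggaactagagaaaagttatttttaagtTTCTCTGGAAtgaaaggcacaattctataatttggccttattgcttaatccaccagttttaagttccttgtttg

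The IL-4-only region of Mir511 held 2 matches close to each other. The Mir155 region had no match to either STAT spacing. It is shown whole, as the IL-4-only region of a known inflammatory microRNA, with its match to the AP-1 motif (read on the other strand) in capitals.
Mir155 region, chr16:84703244-84703424: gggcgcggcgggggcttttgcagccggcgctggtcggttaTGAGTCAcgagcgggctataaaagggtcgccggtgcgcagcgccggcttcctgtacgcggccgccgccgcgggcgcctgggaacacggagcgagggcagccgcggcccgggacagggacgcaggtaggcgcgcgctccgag

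For the other motifs, the TTCNNNGAA spacing was in 72 of the 956 regions (7.53%, against 6.90% of all regions) and in 7 of the 21 regions higher at the unadjusted threshold (33.3%, against 15.6% of all such regions). AP-1 was in 201 (21.03%, against 18.1%), in 9 of the 33 IL-4-only regions (27.3%, against 16.6%) and in 6 of the 41 control-only regions (14.6%, against 22.7%). PU.1 was in 95 (9.94%, against 9.87%). A match is a run of letters and does not show that a factor was bound.

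The genes that make and use microRNAs were looked at in the same fit, as a list of 21 symbols that begins with Drosha and Dicer1, the nucleases of the pathway, and includes the Argonaute and Tnrc6 effectors. Regions were assigned to 14 of them, 58 in all, and 7 genes had a promoter peak in all 4 libraries. Of the 28 regions in all 4 libraries none passed the adjusted threshold, and 0 were higher and 1 lower at the unadjusted threshold (4.12% and 4.15% of all regions), with a median log2 change of −0.15. The 1 region lay 37117 bp from Prkra, which encodes a Dicer partner, with heights of 23.60 and 21.11 in the controls and 11.43 and 10.44 after IL-4 (log2 change −0.82). The Dicer1 promoter had 17.46 and 15.84 against 15.78 and 14.84, and the Ago2 promoter had 13.17 and 10.87 against 12.63 and 9.25. Drosha had a single peak of 2.63 in control 1. Of the 58 regions, 1 was IL-4-only, in Tarbp2, which encodes another Dicer partner (13.25 and 6.55), and 3 were control-only (2.53% and 4.33% of all regions). Those 3 were at Ago1 (4.38 and 3.78) and Tnrc6c (4.35 and 5.66 at its promoter, 9.45 and 4.95 in an intron).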

How the data were processed

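The deposited files are peak lists, 1 per library, with a peak score, a HOMER annotation, the nearest RefSeq start and its gene. Per the submitters' processing notes the authors used BWA 0.7.10, SAMtools 0.1.19, MACS2 2.0.10 and HOMER 4.2 with mm10, and the study's methods say that blacklisted regions were removed. Whether reads were shifted for the transposase cut is not given in the sources used here. The deposited scores carry no stated unit and were read as −log10 q-values, since the lowest was 1.3. That is below 2, the value of the q-value limit in the study's methods, so the files hold weaker peaks than that limit allows. They grow with depth, which is unknown, and are no counts.

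Peaks overlapping by at least 1 bp were merged, and a region took the highest score of each library. Where all 4 libraries held a peak, log2 heights were quantile-normalised and entered limma 3.58.1 under R 4.3.3 (eBayes with trend, Benjamini-Hochberg over 25442 regions, threshold 0.05), and the fit, merging and motif search were tested on simulated data. Values per library were compared by an exact permutation test over every split of the 4 libraries (numpy 2.4.6). P-values measure only the spread between these samples. In limma this is mostly the spread over all regions of similar height, and not that of the 4 libraries at a single region. The Mir1930 region, with near-equal replicates (7.76 and 7.89 in the controls, 2.95 and 2.79 after IL-4), still had an SE of 0.55. Sequences came from the GRCm38.p6 assembly behind mm10 and from RefSeq, and 1 region's sequence is not reported here. Deposited names were matched to RefSeq by transcript identifier (941 of 956 regions), and Mir21, Mir122a and Mir193 are Mir21a, Mir122 and Mir193a there. Where a gene is in a microRNA list, every copy and letter of its number counts.

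Named were, by rule, up to 10 IL-4-only and 10 control-only regions by their weaker height, the 8 most positive and 8 most negative log2 changes with the same direction between same-numbered libraries, the 10 highest regions, the 5 names with most regions, and listed microRNAs within 10 kb of a hairpin. The Mir491 region at 57440 bp, the 3 IL-4-only promoters, and Mir5127, the Tarbp2, Ago1, Tnrc6c and Prkra regions, and regions of Mir17, Mir155, Mir511, Mir146, Mir223, Mir378 and the Mir23a cluster outside these rules were named after their values were seen. The members and lists were chosen with earlier results of these data known. Alternatives were a score minimum of 2 or of the pooled median of 7.37, an overlap of 50 bp, a gap of 500 bp, assignment by any peak, median centring, regions in at least 2 libraries, no variance trend, a replicate block and leaving out each library, and, chosen after seeing the data, only regions with the hairpin at the deposited distance.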

Additional observations from a re-analysis of the deposited data

How the results depend on the processing

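No microRNA region was called under any alternative except without control replicate 2, where the Mir491 region at 57440 bp passed (limma adjusted p = 0.0343), so the count higher after IL-4 ran from 0 to 1 when 1 library was left out and the count lower stayed at 0. The IL-4-only and control-only counts of 33 and 41 became 10 and 23 when only peaks at or above the pooled median score were kept, and their shares of 3.45% and 4.29% of the regions ran from 5.54% to 12.2% and from 7.95% to 15.4% when 1 library was left out, where fewer libraries had to match. The shares over all regions were not computed for these alternatives. The median log2 change of −0.0082 was 0.036 after median centring and ran from −0.051 to 0.020 without 1 library each. The difference of −37 in peaks per library ran from −69 to −5 without 1 library each, and the difference of 0.013 percentage points in their share became −0.012 at or above the pooled median score and ran from −0.023 to 0.049. In all, 60 of the 74 alternative values of the main results were counted as unmoved, by rules that differed between results. Many were counts of 0 that stayed 0. Without 1 library each, differences in peaks per library or their share counted as unmoved within the SD between replicates, even where the sign changed. At other score minima only their sign was compared. All 19 single regions checked kept their direction, but most were picked for large changes of the same direction between same-numbered libraries. That choice largely fixed this outcome. With the replicate number as a replicate block, limma still called 0 microRNA regions, and the limma adjusted p of the Mir491 region was 0.0618. The samples share only a number, since the correlation of same-numbered deviations was 0.0068 over all regions and 0.059 over microRNA regions with only 2 pairs. Over all regions tested, the 4 higher and 2 lower limma calls became 2 and 1 at or above the pooled median score, 11 and 3 with this block, 6 and 2 after median centring, 0 and 0 without the variance trend or with regions in at least 2 libraries, 6 and 0 or 14 and 0 without control replicate 1 or 2, and 0 and 0 without either IL-4 replicate. With a library left out, the lone library of its group was assumed to vary like the other group. With 2 libraries per group and no depth, changes near the median standard error of 0.46 could not be resolved. Far larger ones did not pass in the main fit either, such as 1.76 at Mir21 and −1.82 at Mir3089 (limma adjusted p = 0.244 for both). The lack of adjusted calls therefore does not show that these regions were unchanged.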
